A study of Mus musculus with 2 samples.

Results

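The 8 genes described here encode the Fos proteins (Fos, Fosb, Fosl1 and Fosl2), the Jun proteins (Jun, Junb and Jund) and their partner Atf3, out of 21938 protein-coding genes of the mouse. They were taken by name, and DNase I hypersensitive peaks were assigned to a gene when the peak centre lay in the gene or when the nearest protein-coding start site was the gene's own. By this rule the 8 genes held 101 of 109169 peaks in replicate 1 and 118 of 114462 peaks in replicate 2. The data are DNase-seq of ovary tissue from B6CASTF1/J females, an F1 hybrid of a C57BL/6 and a CAST parent, at 36 days of age. There was 1 group of 2 libraries, labelled biological replicates 1 and 2 and taken as 1 animal each, with no treatment and no other tissue, so values are described with the spread between the libraries (n = 2) and no test was possible. DNase I cuts DNA that is not covered by nucleosomes, and a peak marks a stretch cut more often than its surroundings. A footprint is a short stretch inside such a region that is cut less than its flanks, as under a bound protein.

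AP-1 is a dimer of a Fos and a Jun protein, or of 2 Jun proteins, held together by a leucine zipper. It binds TGACTCA or TGAGTCA, and dimers that contain ATF or CREB proteins prefer TGACGTCA, the cyclic AMP response element (CRE). The search for AP-1 matches used TGANTCA, which allows any base in the middle. Several of these genes are immediate early genes, transcribed within minutes of a growth factor or hormone signal without new protein synthesis, through serum response factor (SRF) on CArG boxes and CREB on CREs. In the ovary, gonadotropins induce Fos and Jun genes in granulosa cells around ovulation, and Jund and Fosl2 are retained as those cells luteinize.

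Ovary tissue mixes cell types, and fewer cells of a type cannot be told apart from less open chromatin per cell. Promoter peaks in both libraries were found for 6 of 6 granulosa cell markers and 4 of 5 theca and luteal markers. They were also found for 2 of 2 markers of oviduct and surface epithelium, Foxj1 and Krt8. Among all protein-coding genes 65.3% had such peaks, with median signal values of 6.708 in replicate 1 and 3.606 in replicate 2. Every granulosa, theca and luteal marker counted here lay below these medians, down to Fshr at 0.6318 and 0.4908. Foxj1 lay above them, at 11.85 and 7.126. Whether oviduct was part of the tissue was not tested. None was found in either library for 4 of 4 oocyte, 4 of 4 leukocyte and 2 of 2 hepatocyte markers. Read depths were not given in the sources used here, and replicate 1 held 301406 footprints and replicate 2 held 294269.

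Each promoter sequence shown here is the stretch in which footprints of both libraries overlapped a match to a motif. At Jun the footprint of replicate 1 lay in no peak of that library, and at Junb it reached past the edge of its peak. Capitals mark every match of the named motif in the stretch. Sequences run 5′ to 3′ on the strand of the gene and were read from RefSeq's GRCm38.p6, the build of the peak coordinates (mm10). All letters and motif matches are those of this reference, and the sequence of the CAST parent was not examined. Positions are counted from the annotated start as 0, with negative numbers upstream. For the promoter of Fos, the capitals are a CArG box, TGACG (the CRE half-site, on either strand) and a TATA box (TATAAA). For Fosb they are a CArG box, for Jun the AP-1-like element TGACATCA, for Junb a TATA box, for Jund a CRE, and for Fosl2 and Atf3 the GC box GGGCGG on either strand.
Fos promoter, chr12:85473570-85473869, plus strand: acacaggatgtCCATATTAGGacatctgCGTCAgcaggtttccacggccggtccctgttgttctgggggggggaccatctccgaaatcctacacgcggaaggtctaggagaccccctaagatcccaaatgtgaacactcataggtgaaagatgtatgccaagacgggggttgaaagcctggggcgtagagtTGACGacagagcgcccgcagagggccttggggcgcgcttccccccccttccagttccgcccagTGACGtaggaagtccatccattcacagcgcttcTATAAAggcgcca
Fosb promoter, chr7:19310262-19310361, minus strand: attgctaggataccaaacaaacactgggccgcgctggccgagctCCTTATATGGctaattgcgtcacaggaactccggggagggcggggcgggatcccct
Jun promoter, chr4:95052223-95052322, minus strand: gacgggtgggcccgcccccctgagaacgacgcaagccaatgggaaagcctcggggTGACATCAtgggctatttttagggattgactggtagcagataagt
Junb promoter, chr8:84978719-84978818, minus strand: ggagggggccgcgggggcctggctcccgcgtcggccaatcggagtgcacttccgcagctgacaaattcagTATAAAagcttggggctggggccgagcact
Jund promoter, chr8:70698689-70698788, plus strand: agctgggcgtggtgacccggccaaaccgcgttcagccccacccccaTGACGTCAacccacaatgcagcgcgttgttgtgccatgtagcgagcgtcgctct
Fosl2 promoter, chr5:32135628-32135727, plus strand: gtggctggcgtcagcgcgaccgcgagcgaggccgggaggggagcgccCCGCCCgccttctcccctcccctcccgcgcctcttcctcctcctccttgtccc
Atf3 promoter, chr1:191183493-191183592, minus strand: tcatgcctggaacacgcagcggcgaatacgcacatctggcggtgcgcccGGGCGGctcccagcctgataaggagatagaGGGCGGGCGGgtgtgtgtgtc

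Away from promoters, 3 stretches are shown out of a larger number with footprints of both libraries on a motif match. The site downstream of Junb is shown for its CArG box. The sites upstream of Fosb and Atf3 are shown for their AP-1 matches, which footprints covered only in part. None of the 10 stretches lay in an annotated exon.
Junb downstream site, chr8:84976579-84976678, minus strand: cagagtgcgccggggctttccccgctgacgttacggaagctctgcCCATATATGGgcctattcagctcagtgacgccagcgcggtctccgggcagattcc
Fosb distal site, chr7:19327302-19327401, minus strand: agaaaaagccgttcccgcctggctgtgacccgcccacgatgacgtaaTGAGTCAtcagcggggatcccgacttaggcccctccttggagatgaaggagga
Atf3 upstream site, chr1:191224354-191224453, minus strand: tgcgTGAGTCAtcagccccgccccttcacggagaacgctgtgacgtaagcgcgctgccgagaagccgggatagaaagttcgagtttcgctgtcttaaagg

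All 8 genes had an open promoter, a peak within 500 bp of a protein-coding start site, in both libraries. Among all protein-coding genes 65.3% did (14332 of 21938). The promoter values given next are the authors' signal value of the highest promoter peak, a number per peak that was not divided by length and with a scaling not given in the sources used here. The median over the 8 genes of the mean of both libraries was 8.158, against 5.166 over all open promoters. In both libraries 4 genes lay above the upper quartile of open promoters, where 21.2% of all open promoters did.

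The Jun genes included the highest 2 promoters and, in Junb, 1 below those of Atf3, Fosl2 and Fosb. The promoter of Jund, the Jun protein that is made in most cells without stimulation, had a value of 19.99 in replicate 1 and 9.423 in replicate 2 (mean 14.7 ± 7.47, SD, n = 2), at percentile 97.3 of open promoters. For Jun, the cellular homologue of a viral oncogene, the values were 14.52 and 8.743 (mean 11.6 ± 4.09, percentile 90.4). The promoter of Junb, which often opposes Jun in growth control, gave 8.428 and 4.79 (mean 6.61 ± 2.57, percentile 61.3). Thus Jund and Jun were above the upper quartile in each library (11.26 and 5.674), and Junb lay between the median and that quartile.

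Among the partners, the promoter of Atf3, a stress-induced repressor and partner of Jun proteins, had values of 13.34 and 6.91 (mean 10.1 ± 4.54, percentile 84.3). Fosl2, which encodes Fra-2, had 12.28 and 5.935 (mean 9.11 ± 4.48, percentile 78.8). Fosb, which also gives rise to the truncated and long-lived ΔFosB protein, had 9.118 and 5.301 (mean 7.21 ± 2.70, percentile 66.02). The promoter of Fos itself was below the median of open promoters in both libraries (6.708 and 3.606), with values of 5.621 and 3.442 (mean 4.53 ± 1.54, percentile 44.7). Fosl1, which encodes Fra-1, had the lowest values of the 8, 2.13 and 1.427 (mean 1.78 ± 0.497, percentile 19.8).

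**Figure D1:**
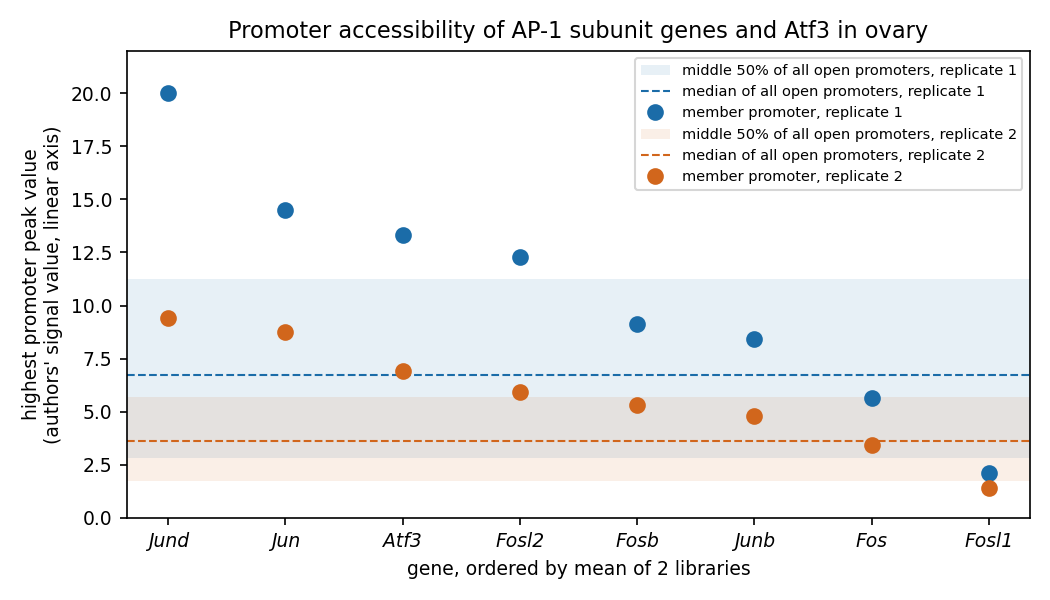
Value of the highest promoter peak (vertical axis, the authors' signal value, linear) for the 8 genes ordered by mean, with a point for each library. Dashed lines are the medians and shaded bands the middle 50% of all 14332 open promoters in each library. Jund is highest at 19.99 and 9.423 and Fosl1 lowest at 2.13 and 1.427, and every gene is higher in replicate 1.

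The order of the 8 promoters was the same in both libraries, for 7 of 7 neighbouring pairs. As deposited, the ranges of neighbours overlapped in all pairs other than Fos and Fosl1, because every value of replicate 1 was higher. Divided by the median open promoter of its own library, Jund stood at 2.98 and 2.61, Jun at 2.17 and 2.42, Fos at 0.838 and 0.955 and Fosl1 at 0.318 and 0.396. On that scale the ranges of all 7 neighbouring pairs were apart. With 2 libraries this is a description of the order and not a test of it.

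The higher value in replicate 1 was shared with nearly all promoters, 96.7% of the 14332. The log2 ratio of replicate 2 over replicate 1 had a median of -0.80 over the 8 genes and -0.89 over all open promoters (SD 0.39). All 8 genes lay within 1 SD of that median, from Jund at -1.08 to Fosl1 at -0.58. Across all open promoters the ratio fell with GC content, from a median of -0.50 among the 2859 promoters of lowest GC to -1.13 among the 2849 of highest GC. The GC content of the 8 promoter sites ran from 61.6% in Fos to 70% in Jund, and the median ratio of the 8 relative to promoters of similar GC (the same of 5 equal groups by GC) was 0.069. The part of GC content in the ratios was not tested. The significance of the cuts did not follow the values: at the promoters of Fosb, Junb and Jund the highest −log10 q was higher in replicate 2 (95.5 against 52.2 for Fosb, 46.3 against 33.2 for Junb and 144 against 128 for Jund), and at the other 5 it was higher in replicate 1.

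**Figure D2:**
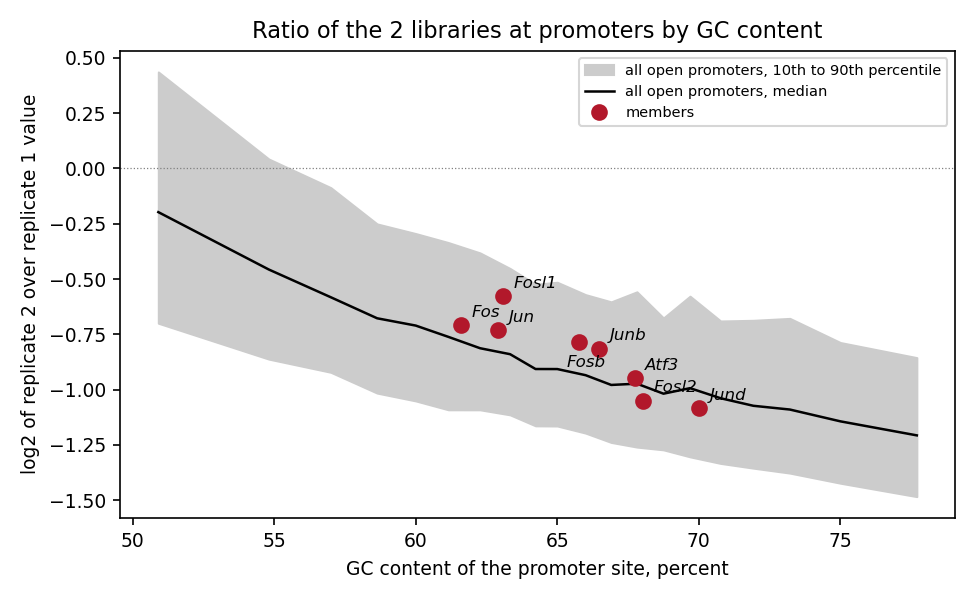
Log2 of the replicate 2 over the replicate 1 promoter value (vertical axis) against GC content of the promoter site in percent (horizontal axis). The line and grey band are the median and the 10th to 90th percentile of all open promoters in bins of GC, and points are the 8 genes, from Fosl1 at -0.58 to Jund at -1.08.

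Annotated start sites of a gene were not equally open. Atf3 has starts at chr1:191218039 and chr1:191183340 in GENCODE. The upstream start had no peak within 500 bp in either library, and the downstream start carried the promoter peak, centred at -0.21 kb in an intron of the longer transcript. A further peak on that downstream start was called in replicate 2 alone, with a value of 5.281, but the per-base significance there was also high in replicate 1 (−log10 q of 71.0, against 90.9 in replicate 2). Fosb has starts at chr7:19310051, chr7:19310046 and chr7:19309600. The 2 upstream ones shared the promoter peak, and the start at chr7:19309600 had a single peak of 0.4515 in replicate 2.

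For Jund and Fosl2 the start depended on the annotation. RefSeq places the start of Jund 1210 bp upstream of GENCODE's, and at that position there was no peak in replicate 1 and at most 0.8507 in replicate 2. RefSeq's start of Fosl2 lies 671 bp downstream of GENCODE's, where the values were 4.11 and 1.924 in place of 12.28 and 5.935. For both genes the stronger peak lay at the GENCODE start.

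**Figure D3:**
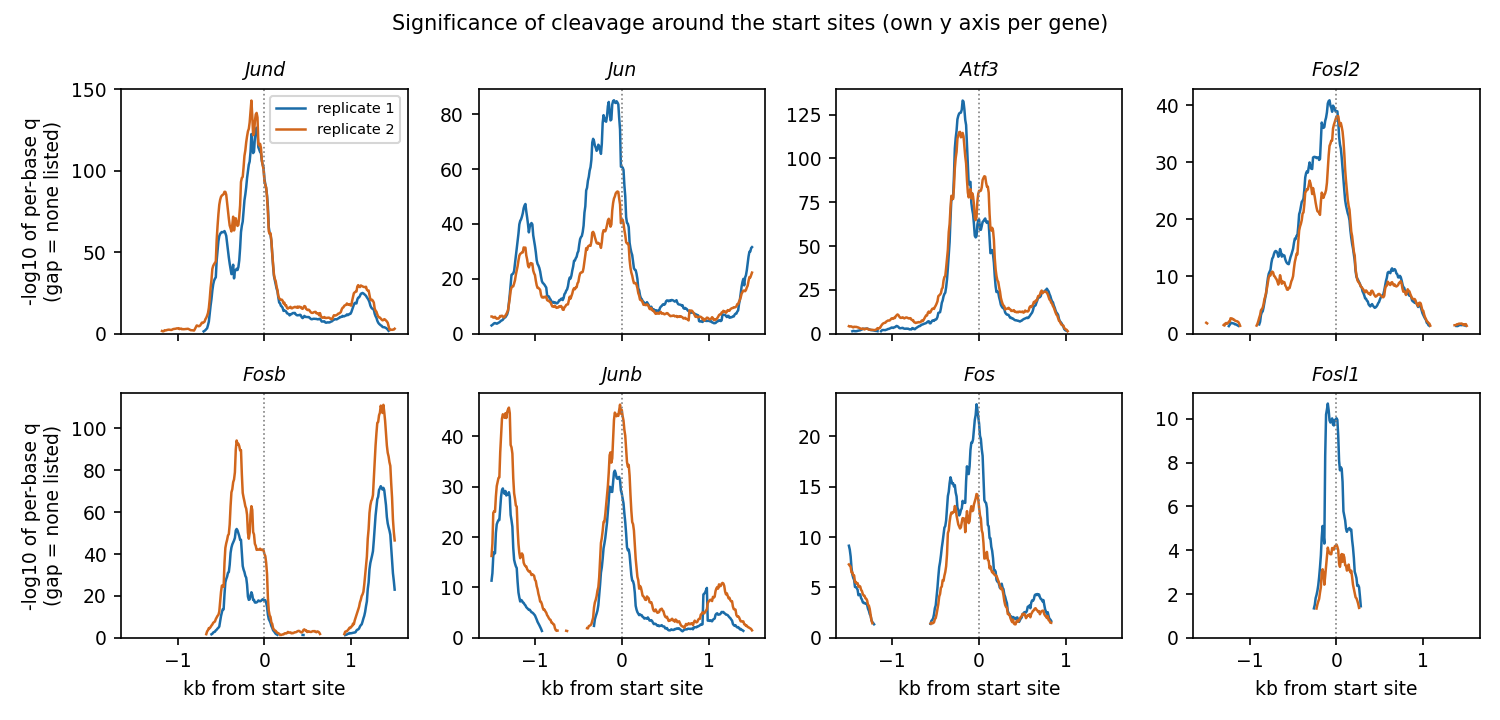
Highest listed significance of cleavage (vertical axis, −log10 of the authors' per-base q, with its own scale in each panel) against distance from the start site in kb (horizontal axis, negative upstream) for the 8 genes in both libraries. Jund and Atf3 reach the highest significance in both libraries, Jun, Fosb and Junb are among the genes with a further summit inside the window, and Fosl1 stays at or below 10.7.

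Over all of their territory, meaning all positions assigned to them, the 8 genes held 127 sites, where a site is a set of overlapping peaks of either library. Both libraries had a peak in 84 of them (66.1%, against 57.4% of all 137126 sites). Replicate 1 alone had 14 sites, with a median value of 0.6545, and replicate 2 alone had 29, with a median of 0.4319. These were weak beside the shared sites, whose medians were 1.72 and 1.541. Of the 84 shared sites, 12 were promoters (14.3%, against 25.1% of all shared sites). Distal sites, over 1000 bp from every annotated start of any gene, numbered 55 (65.5%, against 64.8%). The other 17 fell between these classes (20.2%, against 10.1%).

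A shared distal site was found for 7 of the 8 genes, and for 61.7% of all protein-coding genes. The median was 6 per gene among the 8 and 1 among all genes. The territories were of similar size (median 62.5 kb against 52.1 kb), and the density was 8.93 shared distal sites per 100 kb against 1.53. Fosl2 had 14 such sites, Fos and Jun 12 each, Atf3 7, Fosb 5, Junb 3, Jund 2 and Fosl1 0. Most lay upstream of their start (39 of 55), with 14 within 10 kb, 25 between 10 and 50 kb and 16 farther away. Side and distance were not counted over all shared distal sites, so these numbers do not set the 8 genes apart. They also depend on where the starts of neighbouring genes lie. Assignment to the nearest start is a rule of position and does not show which gene a site acts on.

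**Figure D4:**
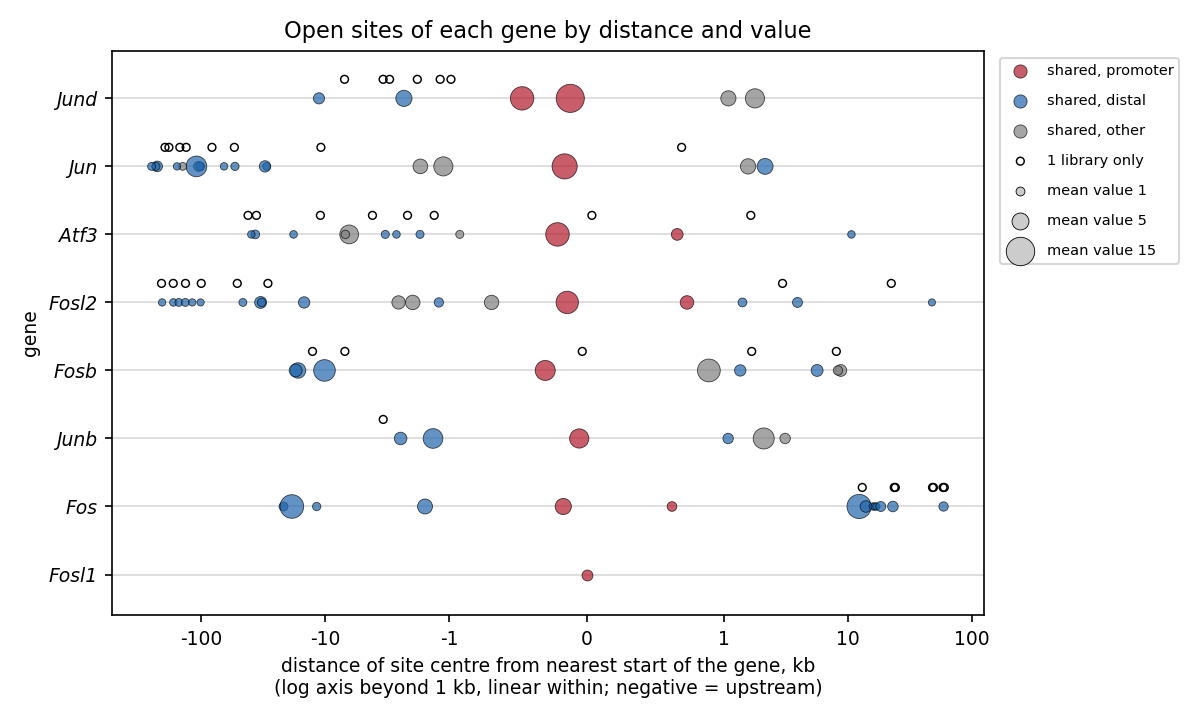
All 127 sites of the 8 genes by distance of the site centre from the nearest start of the gene (horizontal axis, kb, logarithmic beyond 1 kb). Filled circles are sites found in both libraries, with area growing with the mean value and colour giving the class, and open circles are sites of 1 library. Fosl1 has a single site at its start, and the largest distal circles belong to Fos, Fosb and Jun.

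At 3 of the 8 genes, Fos, Fosb and Junb, a distal site was higher than the promoter in both libraries, which held for 14.4% of all genes with an open promoter. For Fos it held for a pair of sites. The intergenic site 12.3 kb downstream, chr12:85486121-85486240, had values of 15.23 and 6.217 and a GC content of 78.3%. The intergenic site 18.5 kb upstream, chr12:85455161-85455560, had 13.44 and 6.976. They stood at percentiles 99.86 and 99.83 of all shared distal sites, while the Fos promoter at 5.621 and 3.442 was below the median promoter. The next distal site, 1.56 kb upstream, chr12:85472081-85472580, had 4.963 and 2.644. In 2 weaker sites downstream of Fos, at 13.95 kb (2.455 and 1.656) and 23.0 kb (1.667 and 1.603), footprints of both libraries covered a whole match to the motif of CTCF, the factor that bounds chromatin loops. These were the only CTCF matches in the 55 shared distal sites of the 8 genes (3.64%, against 9.37% of all shared distal sites). Of all CTCF matches in shared distal sites, 75.1% were covered whole in both libraries.

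At Fosb, the noncoding gene D830036C21Rik upstream held its 3 highest distal sites. The site at -10.1 kb, chr7:19320041-19320260, had values of 11.44 and 5.543, above the Fosb promoter in both libraries. The sites at -16.5 kb (5.191 and 2.978) and -17.3 kb (2.937 and 2.428) were lower than the promoter. A site in an intron of Fosb, chr7:19308581-19308840, 889 bp from the nearest start, had 12.77 and 6.164 and was the highest of the gene's 9 shared sites. It was singled out after its values were seen.

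The territory of Junb was compact, with 6 shared sites in 10.2 kb. The highest was the site shown for its CArG box, chr8:84976521-84976740, between the annotated transcripts of Junb and 2.09 kb from the main start, with values of 10.13 and 5.831. The distal site at -1.34 kb, chr8:84979941-84980180, had 8.792 and 5.065, and both of these exceeded the promoter (8.428 and 4.79) in each library. The next distal sites were at -2.45 kb (3.159 and 1.891) and, over the coding exon, at 1.08 kb (1.7 and 1.485).

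Jun and Jund kept their highest site at the promoter. The highest distal site of Jun lay 109 kb upstream in an intron of its antisense neighbour Junos, chr4:95161261-95161680, with 10.77 and 4.646. The next was over the 3′ UTR of Jun, 2.14 kb from its start, with 5.588 and 3.128, and the last of the 3 was at -30.5 kb with 1.96 and 1.976. Jund had a second promoter site at -0.47 kb with 12.86 and 7.159. Its 2 distal sites lay at -2.31 kb (6.103 and 2.945) and -11.2 kb (1.55 and 2.225), the last being higher in replicate 2.

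The distal sites of Fosl2 and Atf3 were many and low. The 3 highest of Fosl2 had values of 2.722 and 1.741 at -33.1 kb, 2.475 and 1.518 at -14.8 kb and 1.387 and 1.413 at 3.91 kb. The highest distal site of Atf3, at -36.6 kb, had 1.153 and 0.7526, the next at -3.26 kb 0.8532 and 0.6675 and the last at -1.71 kb 0.8467 and 0.6609. The first of these distances is counted from the start at chr1:191218039, which had no peak, and the others from chr1:191183340. The second strongest site of Atf3 lies at -6.38 kb from the start without a peak and farther from the open start. This site stands beside the start of the lincRNA D730003I15Rik and so is not distal by this definition. Its values were 8.135 and 4.463, and it is the site shown for its AP-1 match.

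Footprints inside the shared sites of the 8 genes numbered 263 in replicate 1 and 259 in replicate 2. The density was 1.268 and 1.108 footprints per 100 bp, between that of all shared promoter sites (1.355 and 1.277) and all shared distal sites (1.183 and 1.014). Of the footprints of replicate 1, 128 (48.7%) overlapped one of replicate 2 by at least 1 base, and 136 (52.5%) of those of replicate 2 overlapped one of replicate 1. In the promoter sites the number seen in the other library ran from 1 of 1 in replicate 1 and 1 of 10 in replicate 2 at Junb to 9 of 10 and 9 of 12 at Jund.

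By the same rule, counting only footprints whole inside a peak of their library, 2 of the elements shown for the promoters of Fos, Junb, Jun and Jund were covered whole in both libraries. At Fos the TATA box at -33 to -28 lay in a footprint of 26 bp in replicate 1 and of 24 bp in replicate 2. The CRE of Jund at -214 to -207 lay in footprints of 27 and 29 bp. The TATA box of Junb at -30 to -25 and the TGACATCA of Jun at -45 to -38 lay in such footprints in replicate 2 alone, of 24 and 36 bp. In replicate 1 footprints of 23 and 26 bp covered these elements too, but the first reached past the edge of its peak and the other lay in no peak of replicate 1. CRE was matched in 1 of the 12 promoter sites, against 2.81% of all shared promoter sites, and in 0 of 55 distal sites, against 0.425%. Whole coverage in both libraries was found for 12.8% of all TATAAA matches in shared promoter sites, 61.6% of CRE matches and 8% of TGACATCA matches. For the CRE half-site TGACG it was found at 5 of 20 matches in the promoter sites of the 8 genes, at Fosb and Jund, and at 18.8% of matches in all shared promoter sites. The matches at Jund include both strands of the CRE already named, and every full CRE is likewise counted on both strands in the background. The Fos promoter also holds 3 CRE half-sites in the stretch shown. The half-site at -66 to -62 was covered whole by a footprint of 7 bp in replicate 1 and by none in replicate 2.

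CArG boxes, the sites of SRF, were matched in 4 of the 84 shared sites (4.76%, against 1.14% of all shared sites), at Fos, Fosb and Junb. They were 2 of 12 promoter sites, against 1.18% of all, 1 of 55 distal sites, against 1.12%, and the site downstream of Junb. The CArG box of the Fos promoter centred at -304 overlapped no footprint in either library, although the peak around it was called in both. At Fosb the box at -266 to -257 was covered in part, for 5 of its 10 bases in replicate 1 and 6 in replicate 2. Downstream of Junb the box at 2085 to 2094 was covered for 10 of 10 bases in replicate 1 and 8 in replicate 2, and the box in the site at -1.34 kb for none. Among all CArG matches in shared sites, 12.4% overlapped a footprint in both libraries and 2.18% were covered whole in both.

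GC boxes were the matches shown for Fosl2 and Atf3. The CCGCCC of Fosl2 at -126 to -121 was covered for 6 of 6 bases in replicate 1 and for 2 in replicate 2. The GGGCGG of Atf3 at -203 to -198 was covered whole in both libraries, in footprints of 27 and 29 bp. GC boxes are common in promoters, and 21.5% of their matches in all shared promoter sites were covered whole in both libraries.

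Matches to TGANTCA, with any base in the middle, were found in a share of the sites near that of open sites at large. TGANTCA was matched in 8 of the 84 shared sites (9.52%), spread over Atf3, Fosb, Fosl1, Fosl2 and Jun, against 8.21% of all 78709 shared sites. The share was 3 of 12 among promoter sites, against 4.82% of all, and 4 of 55 among distal sites (7.27%), against 9.61% of all. No match lay in the 300-base RefSeq promoter windows of the 7 genes found in RefSeq's table, where 7.81% of 32851 windows held a match. These windows follow RefSeq's starts, so they lie away from the strongest peak at Jund and Fosl2 and do not hold the match of the Fosl2 promoter site at 56 bp downstream of the GENCODE start. All 8 matches were TGACTCA or TGAGTCA. The shares over all sites count any middle base, and none was computed for these letters alone. Of the 8 matches 2 overlapped a footprint in both libraries, both TGAGTCA and both only in part. The match upstream of Fosb at -17303 to -17297 was covered for 3 of 7 bases in replicate 1 and 5 in replicate 2. The match upstream of Atf3 at -6410 to -6404, counted from its start without a peak, was covered for 2 and 1. In each of these sites a CRE half-site and a GC box were covered whole in both libraries. Among all TGANTCA matches, of any middle base, 6.65% overlapped a footprint in both libraries and 0.958% were covered whole. Whole coverage was found for 48.4% of CRE matches and 74.3% of CTCF matches. A match or a footprint on it does not show which protein was bound.

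Other genes of the pathway were listed by role. Of 7 bZIP partners outside the 8 genes, 6 had an open promoter in both libraries, led by Atf7 (19.77 and 10.52) and Atf2 (15.97 and 7.297), and Batf, a lymphocyte factor, had none in either. All 7 factors that switch on Fos and Jun were open, led by the CRE binding protein gene Creb1 (17.01 and 7.153) and Mef2a (14.13 and 7.035). All 8 upstream kinases were open, led by Map2k1 (25.56 and 11.47) and Map2k7 (24.78 and 9.777), which act on the ERK and JNK kinases. All 4 feedback phosphatases were open, led by Dusp5 (16.93 and 8.546) and Dusp1 (9.659 and 4.699). Of 8 textbook AP-1 targets 5 were open, led by Hmox1 (9.763 and 4.875) and Il6 (8.135 and 4.273), while the matrix protease genes Mmp13 (a collagenase) and Mmp3 (a stromelysin) were among the 3 without a promoter peak. The background for each of these counts is the 65.3% given for all protein-coding genes.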

How the data were processed

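Peak lists, footprints and per-base false discovery rates were used as the authors deposited them, called separately for each library on mm10, per the labels. Aligner, callers and thresholds were not given in the sources used here. The peaks have a deposited signal value, and the deposited q-values are listed up to 0.0499. The deposited footprint score is 0.01 throughout, so only footprint positions were used. The longer peak list of each library was used. Gene models were GENCODE M21. Overlapping peaks were joined into sites, and a site's value in a library is that of its highest peak. Peaks within 1 library can overlap each other (3334 in replicate 1 and 4883 in replicate 2). Footprints had to lie whole inside a peak of their library, also for motif coverage, a rule applied there after a first count over all footprints. Motif matches were searched as letters on both strands. A site has n = 2 libraries in 1 group, so no p-value was computed. The 8 genes, the pathway and marker lists and the naming rules were chosen with earlier results of these data known, and the CTCF motif and the CRE half-site were added after seeing the data. The rule for named sites was the highest promoter site and the 3 highest shared distal sites of each gene. Sites named outside this rule include the Fosb intron site, the site downstream of Junb and the Atf3 site beside D730003I15Rik. The second promoter site of Jund and the Fos sites with CTCF matches were also outside it. Named pathway genes are the 2 highest and up to 2 without a promoter peak. Analysis used Python 3.11.15 with pandas 2.3.3, numpy 2.4.6 and pysam 0.24.0, and the code passed 7 of 7 checks on simulated data. Alternative settings changed the peak list, promoter width, start sites, overlap, assignment, summary of peaks, distal limit, footprint rule, motif window and library.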

Additional observations from a re-analysis of the deposited data

How the results depend on the processing

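Of 40 alternative values for 7 results, 31 stayed within 1.5 times the reported count or, for other values, within 1 SD between libraries (for the ratio, 1 SD over open promoters). For the median promoter value, that SD is always wider than the distance from the mean of both libraries to either. Leaving out a library therefore could not count as a change there, and those outcomes are among the 31. Across the settings the 84 shared sites ranged from 56 with the shorter peak lists to 114 in replicate 2 alone. The median promoter value of 8.158 ranged from 5.618 in replicate 2 alone to 10.87 with summed peaks. The count of open promoters was 7 with the most upstream start alone (Atf3 was lost) and 6 of the 7 genes in the RefSeq table with RefSeq starts (Jund was lost), which was added after seeing the data. The median ratio between libraries over the 8 promoters was 0.0895 above that of all open promoters and turned to -0.506 relative to distal shared sites, whose median ratio over all genes was -0.29. Footprints per library, 261 on average, became 151 when they had to overlap one of the other library by 1 base and 109 at 50% of both. The median of 6 distal sites became 9.5 when replicate 2 stood alone, and leaving out a library in turn gave 7.5 to 9.5. The share of sites with an AP-1 match, 9.52%, was 11.1% with an overlap of 50% of both peaks, 7.14% with the shorter peak lists, 5.95% in windows of 75 bp to either side of the centre and 6.14% to 7.07% with a library left out. The share over all shared sites was not recomputed under these settings, so these values have no background beside them. The cause of the changes was not tested. No paired analysis was possible because there is 1 group. The counting error of a value is unknown, since read depths were not given in the sources used here. When footprints not whole inside a peak were counted as well, the TATA box of Junb and the TGACATCA of Jun were covered whole in both libraries. Whole coverage of all CRE matches was then 52.5% in place of 48.4%, a comparison added after seeing the data.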
